A study of Mus musculus with 11 samples.

Results

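Fatty acid oxidation and ketone body genes were followed by RNA-Seq in hepatocytes with and without *Xbp1*, from mice kept on chow or given the HFS diet. The 37 members were listed by name, as mitochondrial and peroxisomal beta-oxidation enzymes, ketone body enzymes and targets of PPAR-alpha. No measured value entered the rule, although earlier results of these data were known when the list was made. All 37 were found among the 54232 genes counted. The mice were adult males on a C57BL/6 background. In *Xbp1* LKO mice, Cre driven by the albumin promoter deletes the floxed *Xbp1* gene in hepatocytes, and *Xbp1* fl/fl mice carry the floxed alleles without deletion. The HFS (high fat sugar) diet was a Western diet with sugar in the drinking water, and mice were fed for up to 6 weeks. On chow there were 3 *Xbp1* fl/fl and 2 *Xbp1* LKO libraries, and on the HFS diet 3 libraries of each genotype. Each HFS library carries 2 animal numbers in its file label, which reads as a pool of 2 mice, and each chow library carries 1, so the spread between libraries may have another meaning on each diet. The methods describe a short fast before tissue collection without stating whether it applied to the hepatocyte donors.

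Long-chain fatty acids enter oxidation as acyl-CoA, made by acyl-CoA synthetases, and cross into mitochondria through the carnitine shuttle, where CPT1A is the controlled step. Rounds of dehydrogenation, hydration, oxidation and thiolysis then release acetyl-CoA, which the liver turns into ketone bodies during fasting. Very long chains and dicarboxylic acids are shortened in peroxisomes first, and PPAR-alpha, a nuclear receptor that binds fatty acids, is known to drive the genes of both organelles in the fasted liver.

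Total counts were 19191032 to 23888401 per library. *Xbp1* was at 194 to 301 CPM (read counts relative to the library size, scaled by the TMM method of edgeR) in *Xbp1* fl/fl libraries and at 95.7 to 135 CPM in *Xbp1* LKO libraries, without overlap; the count covers the whole gene and not the deleted part alone. The members together took 1.21% to 1.45% of all counts on chow and 1.21% to 1.58% on the HFS diet in *Xbp1* fl/fl libraries. In *Xbp1* LKO libraries their share was 1.60% and 1.68% on chow and 1.79% to 2.01% with HFS feeding. The albumin transcript alone took 8.06% to 10.9% of counts on chow and 5.88% to 7.42% with HFS feeding in *Xbp1* fl/fl libraries, and 1.67% to 3.72% and 3.33% to 5.40% in *Xbp1* LKO libraries. TMM scaling is meant to remove such a shift from the other genes, and whether it did so was not tested. All values below are on that scale unless library totals are named. All 16 hepatocyte markers were detected, and their sum was 69569 to 116098 CPM in *Xbp1* LKO and 154025 to 203375 CPM in *Xbp1* fl/fl libraries. Markers of non-parenchymal cells summed to 21.6 to 105 CPM for 12 macrophage genes, 31.2 to 166 CPM for 10 endothelial genes, 7.34 to 52.2 CPM for 10 stellate cell genes and 3.38 to 16.3 CPM for 6 cholangiocyte genes. The 6 adipocyte genes summed to 1630 to 5279 CPM, of which *Car3*, a carbonic anhydrase gene that liver also expresses, had 1627 to 5273 CPM; the other 5, with *Lep* at 0 in every library, summed to 0.110 to 17.9 CPM. In bulk RNA, fewer cells of a type and less RNA per cell cannot be told apart.

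The members were abundant transcripts in these hepatocytes. All 37 passed the low-count filter of edgeR, and 31 had a median over 100 CPM across the libraries. Per kilobase of the principal transcript, the mitochondrial thiolase gene *Acaa2* was the highest in chow-fed *Xbp1* fl/fl libraries, at 812 ± 72.5 CPM per kb (SD, n = 3). The peroxisomal thiolase gene *Acaa1b* had 417 ± 48.1, the long-chain synthetase gene *Acsl1* had 370.0 ± 103 and *Ech1*, an isomerase for unsaturated chains, had 331 ± 24.1 CPM per kb. At the low end stood *Pdk4*, a kinase that shuts off pyruvate dehydrogenase, with 0.803 ± 0.578 CPM per kb, and *Abcd2*, a peroxisomal importer of very long chains, with 2.81 ± 1.32 CPM per kb. These low genes were also the most variable: the SD of log2 CPM within groups was 1.10 for *Pdk4* and 0.89 for *Abcd2*, against a median of 0.17 over the members and 0.23 over all genes tested. The median member was far more abundant than the median gene, with a mean log2 CPM of 8.27 against 3.76, and spread was not compared at matched abundance.

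**Figure D1:**
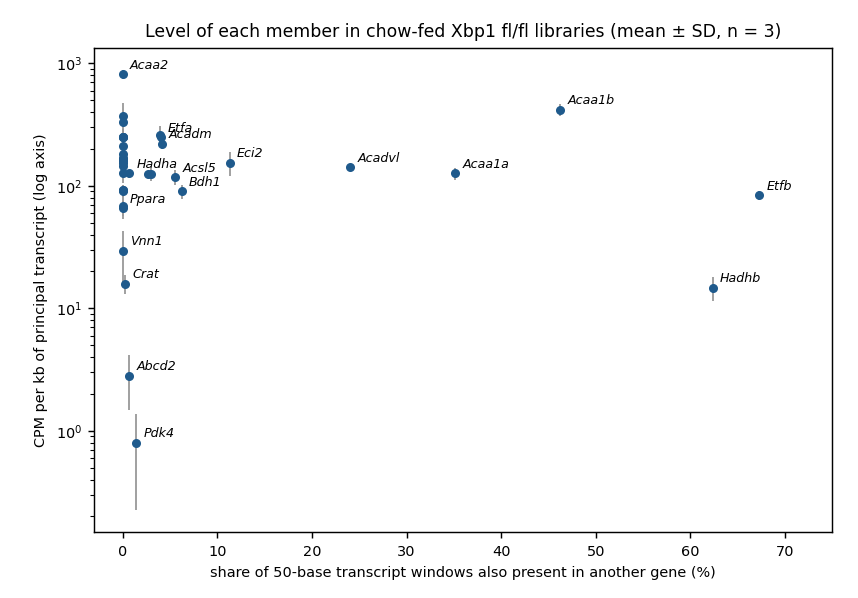
Level of each member in chow-fed *Xbp1* fl/fl libraries, as CPM per kb of the principal transcript on a log axis (points are means and bars SD of 3 libraries), against the percentage of its 50-base windows that also occur in a transcript of another gene. *Acaa2* is highest and *Pdk4* lowest; *Hadhb*, *Etfb*, *Acaa1a* and *Acaa1b* have more than 30% shared windows.

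For some members a read of 50 bases cannot be assigned to a single gene. *Acaa1a* (chr9:119339676-119350299, plus strand, GRCm38) and *Acaa1b* (chr9:119148023-119157093, minus strand) encode a pair of peroxisomal 3-ketoacyl-CoA thiolases and have coding sequences of 1275 bases each, of which 1231 (96.55%) are identical, with 327 identical bases in the longest run. Coding positions 259 to 318, the stretch of 60 bases with the most differences, are printed with the 11 differing bases in capitals to show where reads can separate the pair, followed by positions 748 to 807, where they cannot.
Acaa1a, positions 259 to 318: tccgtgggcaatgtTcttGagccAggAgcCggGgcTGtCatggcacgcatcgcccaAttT
Acaa1b, positions 259 to 318: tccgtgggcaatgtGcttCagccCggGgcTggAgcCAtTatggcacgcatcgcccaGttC
Both, positions 748 to 807: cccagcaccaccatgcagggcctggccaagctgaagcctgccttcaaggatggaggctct
Of the 50-base windows of the principal transcript, 34.0% in *Acaa1a* and 35.5% in *Acaa1b* occurred in the other gene of the pair. For *Hadhb*, the beta subunit of the mitochondrial trifunctional protein, 61.5% of windows occurred in the processed pseudogene *Gm13910*, and for *Etfb*, a subunit of the electron transfer flavoprotein, 67.3% occurred in the overlapping gene *Gm45233*. In chow-fed *Xbp1* fl/fl mice *Hadhb* had 14.8 ± 3.29 CPM per kb while its partner subunit *Hadha* had 126 ± 9.51, and *Etfb* had 84.2 ± 6.95 while *Etfa* had 249 ± 20.6 CPM per kb (SD, n = 3). *Gm13910* had 2.32 to 3.80 CPM and *Gm45233* was at 0 in every library. How the deposited counts treat reads that match several genes was not given consistently, so the levels of these 4 members are uncertain. For 29 members, under 5% of windows were shared.

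The heat map of members by library shows that most members were high together or low together in some libraries and divided in others. Over the 37 members, the median deviation of log2 CPM from each gene's mean was 0.10, 0.12 and 0.19 in HFS-fed *Xbp1* LKO libraries, with 30 of 37 members above their own mean in each of the 3. It was -0.03, -0.22 and 0.09 in HFS-fed *Xbp1* fl/fl libraries, where replicate 2 had 2 members above their mean and replicate 3 had 30. On chow it was -0.19, -0.03 and 0.09 in *Xbp1* fl/fl and 0.05 and -0.16 in *Xbp1* LKO libraries. There 7, 14 and 21 members were above their mean in *Xbp1* fl/fl and 21 and 10 in *Xbp1* LKO libraries, and 13 were in replicate 1 of the HFS-fed *Xbp1* fl/fl group. The pooled SD of this median within groups was 0.13, so members are not independent observations of a condition, and a count of members below describes 11 libraries and not 37 replicates.

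**Figure D2:**
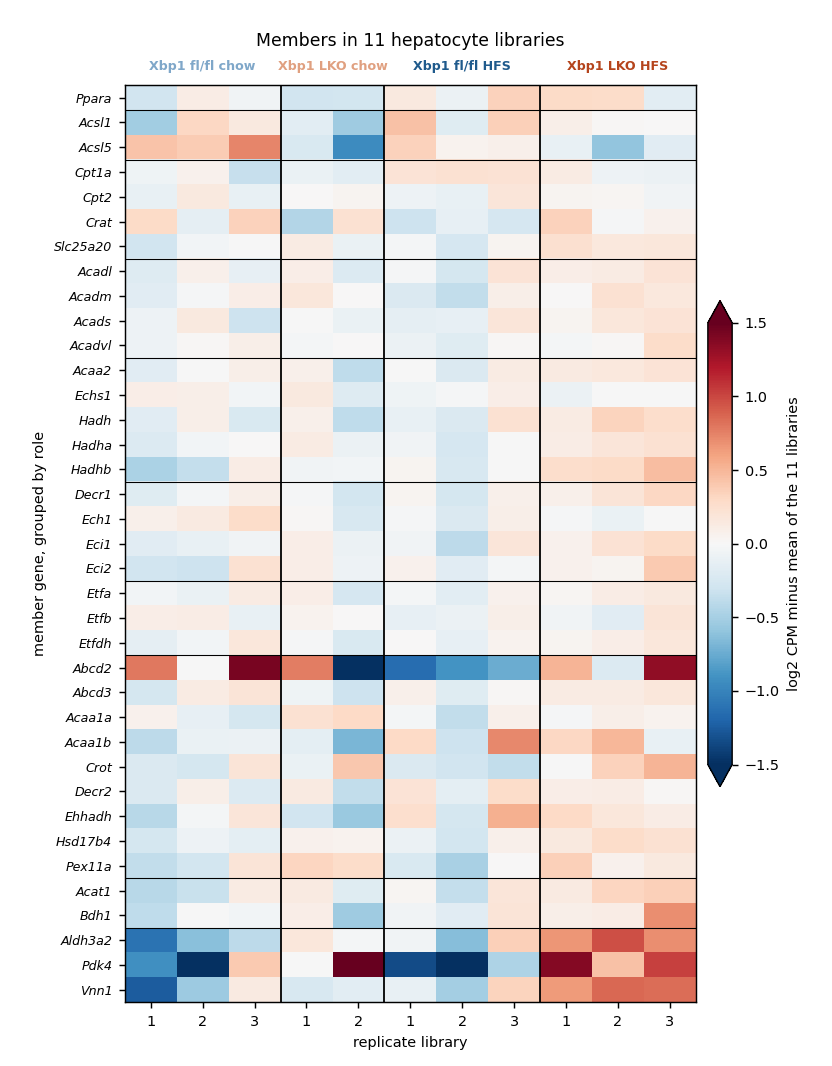
Heat map of log2 CPM minus the gene's mean over the 11 libraries for the 37 members (rows, by role) in each replicate library (columns, by group); colours saturate at -1.5 and 1.5. HFS-fed *Xbp1* LKO libraries are above the mean for 30 of 37 members each, replicate 2 of the HFS-fed *Xbp1* fl/fl group for only 2.

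In chow-fed mice, *Acsl5* was lower in *Xbp1* LKO hepatocytes, and the other members did not pass the test. *Acsl5* (ENSMUSG00000024981, chr19:55251938-55297720, plus strand) encodes a long-chain acyl-CoA synthetase. It had 466, 451 and 578 CPM in *Xbp1* fl/fl libraries and 297 and 181 CPM in *Xbp1* LKO libraries, so the groups did not overlap. Its level in *Xbp1* LKO was 0.48 of that in *Xbp1* fl/fl (log2 fold change -1.06, 95% confidence interval -1.56 to -0.55). *Acsl5* had an adjusted p of 0.025 by the edgeR quasi-likelihood test, with Benjamini-Hochberg adjustment over 13303 genes. It was the single member past the threshold in the downward direction, where 3.02% of all genes passed, and no member passed upward, where 1.73% did. Without replicate 3 of the *Xbp1* fl/fl group the adjusted p was 0.055, and without replicate 2 of the *Xbp1* LKO group it was 0.24 with a log2 fold change of -0.75. In a fit of the chow libraries alone it was 0.11 at a log2 fold change of -1.06. Of the transcript's windows, 5.39% occur on the opposite strand in *Zdhhc6*, which had 72.7 to 84.9 CPM.

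The other synthetase, *Acsl1*, had 990.1, 1762 and 1574 CPM in chow-fed *Xbp1* fl/fl and 1269 and 981 CPM in chow-fed *Xbp1* LKO libraries. Its groups overlapped and the log2 fold change was -0.36 (95% confidence interval -0.91 to 0.20).

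*Pdk4* had 2.04, 1.27 and 5.08 CPM in *Xbp1* fl/fl and 3.84 and 34.6 CPM in *Xbp1* LKO libraries on chow. Its log2 fold change of 2.76 (95% confidence interval 1.09 to 4.43) had an adjusted p of 0.065 by edgeR and 0.038 by DESeq2. The value rests on replicate 2 of the *Xbp1* LKO group, without which the log2 fold change was 0.44 (adjusted p = 0.91). That library also had the lowest *Abcd2* (2.40 CPM, against 14.6 CPM in the other *Xbp1* LKO library), *Acsl5* and albumin.

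The remaining members showed no shift in one direction on chow. The median log2 fold change of the 37 members was -0.01, with 18 above 0 and 19 below, beside 0.00 over all genes. All libraries of one genotype were above all of the other for 4 members that were higher in *Xbp1* LKO (*Acaa1a*, *Aldh3a2*, *Hsd17b4*, *Pex11a*), 10.8% of members where 15.4% of all genes did so, and for 2 that were lower (*Acsl5*, *Ech1*), 5.41% where 15.9% did. For 33 of the 37 members the 95% confidence interval lay within -1 to 1 on the log2 scale, as it did for 64.3% of all genes. An unadjusted p under 0.05 was given to 5 members and to 19.3% of all genes. DESeq2 called 2 members, *Acsl5* and *Pdk4*, and 8.17% of the genes it tested.

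These statements depend on the scaling. With library totals in place of TMM factors, the median of all genes moved to 0.33 and that of the members to 0.32, 33 of 37 members were above 0, and 7 members passed upward where 20.2% of all genes did. Relative to all genes, the members stayed where they were. Markers of endothelial cells were at 50.9 to 127 CPM in chow-fed *Xbp1* fl/fl and 31.2 to 39.4 CPM in chow-fed *Xbp1* LKO libraries, none of the 10 past the threshold. Stellate cell markers were at 11.7 to 35.0 CPM and 7.34 to 8.26 CPM, none past it, and cholangiocyte markers at 8.03 to 12.2 CPM and 4.81 to 5.59 CPM, with 1 of 2 tested lower. Of the 16 hepatocyte markers 4 were lower, and of 6 tested immediate early and heat shock genes, listed for isolation stress, 1 was higher. Macrophage and adipocyte markers overlapped between the genotypes, with none past the threshold. The part of these lists in the differences was not tested.

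On the HFS diet no member passed the threshold of edgeR in either direction, where 1.92% of all genes were higher and 2.16% lower in *Xbp1* LKO hepatocytes, although most members were a little higher in *Xbp1* LKO. An unadjusted p under 0.05 was given to 11 members, 10 higher and 1 lower, and to 17.5% of all genes. DESeq2 called 2 members, *Aldh3a2* and *Crot*, both higher, and 7.23% of genes in either direction. The median log2 fold change of the members was 0.19 with 29 of 37 above 0, beside 0.01 and 51.4% above 0 for all genes. It was 0.12 to 0.27 when each library was left out in turn.

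The 3 members listed for being PPAR-alpha targets outside these pathways, *Aldh3a2*, *Vnn1* and *Pdk4*, had all libraries apart. Of 17 further PPAR-alpha targets that are not members, 14 were above 0 and 3 below on this diet, where 51.4% of all genes were above 0. Their median log2 fold change was 0.36. Past the threshold were 2 of them, *Acot2* and *Cyp4a31*, both higher, where 1.92% of all genes passed upward. Reads that these 2 may share with related genes were not examined. *Angptl4*, an inhibitor of lipoprotein lipase, was at -0.39 (adjusted p = 0.56) and *Cyp4a10*, an omega-hydroxylase gene, at 0.13 (0.88). *Aldh3a2*, which oxidizes fatty aldehydes, had 791, 528 and 1054 CPM in HFS-fed *Xbp1* fl/fl and 1305, 1614 and 1333 CPM in HFS-fed *Xbp1* LKO libraries. Every *Xbp1* LKO library was above every *Xbp1* fl/fl library, as on chow (384, 532 and 627 CPM in *Xbp1* fl/fl, 924 and 804 CPM in *Xbp1* LKO). Its log2 fold change was 0.84 on the HFS diet (95% confidence interval 0.31 to 1.38, adjusted p = 0.082 by edgeR and 0.012 by DESeq2) and 0.75 on chow (0.16 to 1.34, adjusted p = 0.15 and 0.067). *Vnn1*, a pantetheinase that takes part in coenzyme A turnover, had 89.4, 67.9 and 122 CPM in HFS-fed *Xbp1* fl/fl and 151, 175 and 172 CPM in HFS-fed *Xbp1* LKO libraries. Its groups were apart on this diet and its log2 fold change was 0.84 (0.20 to 1.47, adjusted p = 0.15). On chow *Vnn1* overlapped, with 40.6, 66.4 and 106 CPM in *Xbp1* fl/fl and 81.8 and 86.4 CPM in *Xbp1* LKO libraries. *Pdk4* was at 1.52, 0.916 and 2.79 CPM in HFS-fed *Xbp1* fl/fl and 10.02, 5.24 and 7.82 CPM in HFS-fed *Xbp1* LKO libraries, apart but with a wide interval (log2 fold change 2.13, 0.51 to 3.76, adjusted p = 0.15).

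**Figure D3:**
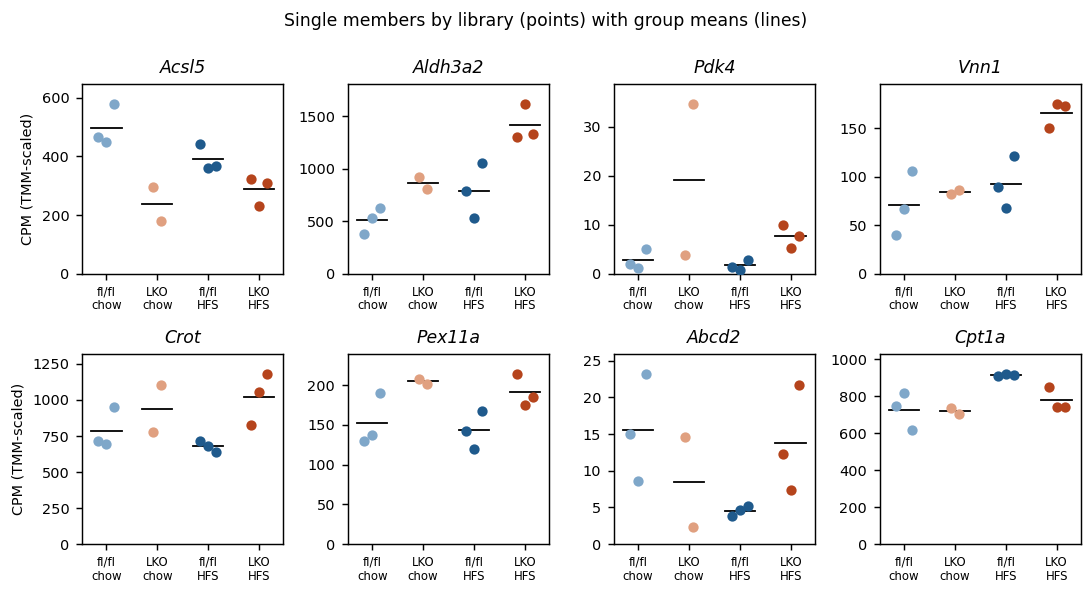
CPM of 8 members in each library (points) with group means (lines) on linear axes from 0. *Acsl5* is lower in *Xbp1* LKO libraries on both diets, *Aldh3a2* is higher on both, and the chow-fed *Xbp1* LKO mean of *Pdk4* is set by 1 library at 34.6 CPM.

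Among peroxisomal members, *Crot*, the carnitine octanoyltransferase that exports shortened chains, had 717, 682 and 641 CPM in HFS-fed *Xbp1* fl/fl and 824, 1054 and 1178 CPM in HFS-fed *Xbp1* LKO libraries, without overlap. Its log2 fold change was 0.58 (95% confidence interval 0.18 to 0.99, adjusted p = 0.11 by edgeR and 0.031 by DESeq2). *Pex11a*, which acts in peroxisome division, had a mean of 191 ± 20.3 CPM in HFS-fed *Xbp1* LKO and 143 ± 24.1 CPM in HFS-fed *Xbp1* fl/fl libraries (SD, n = 3 each), and *Hsd17b4*, a bifunctional enzyme of the pathway, 871 ± 38.6 against 703 ± 86.2 CPM. Neither overlapped, and their adjusted p-values from edgeR were 0.22 and 0.23. *Ehhadh*, the other bifunctional enzyme, had 591, 412 and 719 CPM in *Xbp1* fl/fl and 612, 560.4 and 535 CPM in *Xbp1* LKO libraries on this diet, a log2 fold change of -0.01 (-0.46 to 0.44). *Abcd2* had 3.91, 4.63 and 5.14 CPM in *Xbp1* fl/fl and 12.3, 7.44 and 21.7 CPM in *Xbp1* LKO libraries, apart at a low level (log2 fold change 1.60, 0.33 to 2.87, adjusted p = 0.17).

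In mitochondria, *Hadha*, the alpha subunit of the trifunctional protein, had 515, 451 and 531 CPM in HFS-fed *Xbp1* fl/fl and 575, 606 and 627 CPM in HFS-fed *Xbp1* LKO libraries, a log2 fold change of 0.27 (95% confidence interval 0.0046 to 0.54, adjusted p = 0.28). The 4 acyl-CoA dehydrogenases had log2 fold changes of 0.15 to 0.29, the 4 auxiliary enzymes for unsaturated chains of 0.00 to 0.26 and the 3 electron transfer genes of 0.03 to 0.14. *Acadm*, the medium-chain dehydrogenase, overlapped with 396, 357 and 487 CPM in *Xbp1* fl/fl and 462, 539.8 and 512 CPM in *Xbp1* LKO libraries. Against this direction stood *Cpt1a* with 906, 918 and 913 CPM in *Xbp1* fl/fl and 851, 742 and 741 CPM in *Xbp1* LKO libraries, all *Xbp1* LKO libraries lower (log2 fold change -0.23, -0.52 to 0.06, adjusted p = 0.42). *Acsl5* was lower too, at 442, 361 and 367 CPM in *Xbp1* fl/fl and 323, 231 and 309.8 CPM in *Xbp1* LKO libraries (log2 fold change -0.44, -0.87 to -0.00, adjusted p = 0.28). The regulator *Ppara* had 262, 221 and 301 CPM in *Xbp1* fl/fl and 288, 285 and 211 CPM in *Xbp1* LKO libraries, with group means of 261 CPM in both and an interval of -0.36 to 0.35.

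Of the ketone body enzymes, *Bdh1*, which makes beta-hydroxybutyrate from acetoacetate, had 297, 273 and 351 CPM in HFS-fed *Xbp1* fl/fl and 326, 333 and 499 CPM in HFS-fed *Xbp1* LKO libraries. The groups overlapped and the log2 fold change was 0.33 (95% confidence interval -0.13 to 0.79). *Acat1*, the mitochondrial acetoacetyl-CoA thiolase, had a log2 fold change of 0.31 (-0.10 to 0.71).

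On this diet all libraries were apart for 14 members that were higher in *Xbp1* LKO, 37.8% of members where 13.6% of all genes did so, and for 2 that were lower, 5.41% where 12.5% did. Besides the genes above, the higher ones were *Abcd3*, *Acaa2*, *Crat*, *Decr1*, *Hadhb* and *Slc25a20*. Replicate 2 of the *Xbp1* fl/fl group was below the mean for 35 members, and without it the median of the members was 0.12. With library totals, 13 members passed upward where 9.68% of all genes did, and the median of all genes moved to 0.27 and that of the members to 0.45. The 12 macrophage markers summed to 41.97 to 59.4 CPM in HFS-fed *Xbp1* fl/fl and 59.6 to 105 CPM in HFS-fed *Xbp1* LKO libraries, none past the threshold. The 16 hepatocyte markers summed to 154025 to 167496 and 83504 to 116098 CPM, with 2 past the threshold, both lower. Of 6 tested immediate early and heat shock genes, listed for isolation stress, 1 was higher. No endothelial, stellate, cholangiocyte or adipocyte marker passed, and the part of these lists in the result was not tested.

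**Figure D4:**
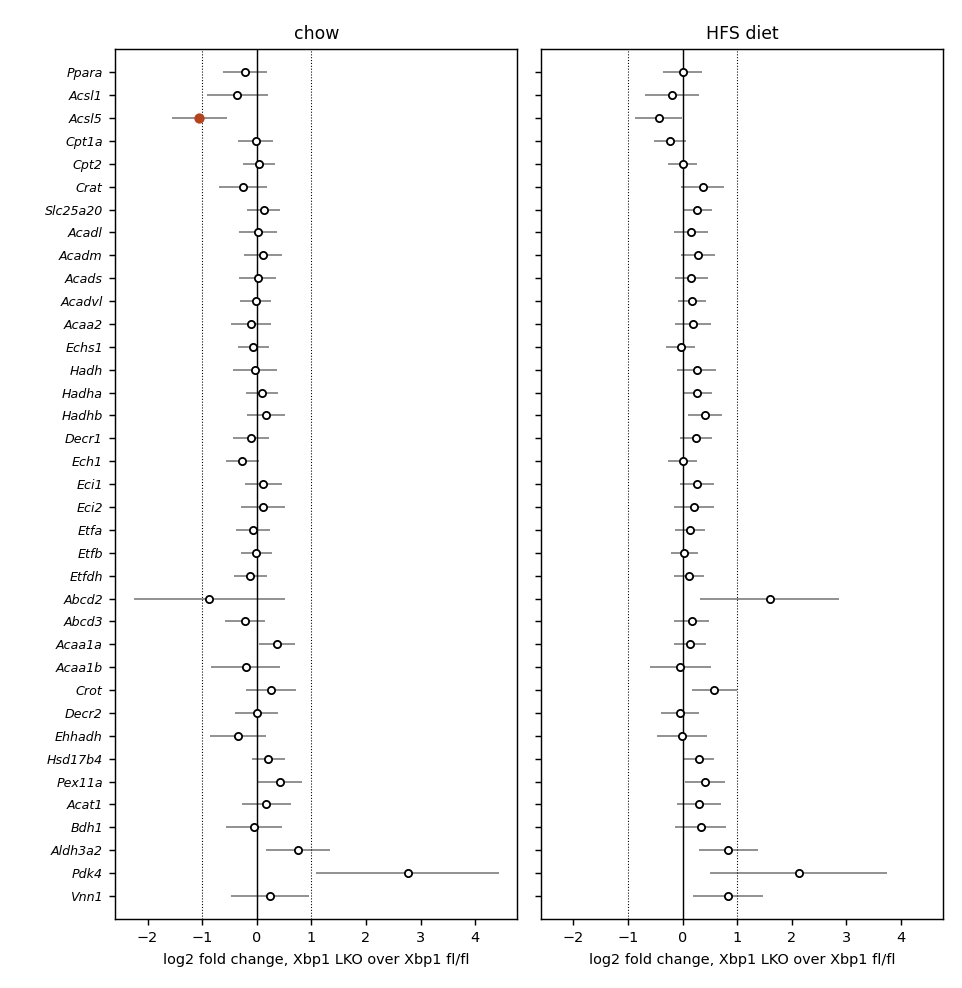
Log2 fold change of each member in *Xbp1* LKO over *Xbp1* fl/fl hepatocytes on chow (left) and the HFS diet (right), with 95% confidence intervals; the filled point passed an adjusted p of 0.05 and open points did not, and dotted lines mark -1 and 1. *Acsl5* on chow is the one filled point, and 29 of 37 points lie above 0 on the HFS diet against 18 on chow.

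In *Xbp1* fl/fl hepatocytes no member passed the threshold of edgeR for the diet, where 0.135% of all genes rose and 0.293% fell, and DESeq2 called no member and 1.2% of genes. An unadjusted p under 0.05 was given to 4 members and to 8.95% of all genes. The median log2 fold change of the members was 0.03, beside -0.01 over all genes, and was -0.07 to 0.10 when each library was left out in turn. *Cpt1a* was the one member with every HFS library above every chow library (2.70%, where 6.33% of all genes were so). It had 747, 817 and 619 CPM on chow, and the 3 HFS libraries given above lay within 906 to 918 CPM. Its log2 fold change was 0.33 (95% confidence interval 0.04 to 0.61, adjusted p = 0.49). *Abcd2* and *Acsl5* were lower in every HFS library (5.41%, where 7.34% of all genes were so). *Abcd2* had 14.9, 8.55 and 23.2 CPM on chow and was at or below 5.14 CPM on the HFS diet, a log2 fold change of -1.77 (-3.05 to -0.49, adjusted p = 0.35).

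In *Xbp1* LKO hepatocytes too, no member passed edgeR for the diet, where 0.0451% of all genes rose and 0.015% fell, and DESeq2 called no member and 1.54% of genes. Most members nonetheless had higher values on the HFS diet: 31 of 37 log2 fold changes were above 0, with a median of 0.19, beside 49.5% and -0.00 for all genes. An unadjusted p under 0.05 was given to 7 members, all higher, and to 12.7% of all genes. All 3 HFS libraries were above both chow libraries for 17 members (45.9%, where 16.7% of all genes were so) and below them for 1, *Acaa1a* (2.70%, where 14.4% were so). *Vnn1* was at 84.1 ± 3.25 CPM on chow (SD, n = 2) and 166 ± 13.3 CPM on the HFS diet (SD, n = 3), a log2 fold change of 0.98 (95% confidence interval 0.25 to 1.71, adjusted p = 0.28). *Ehhadh* had 408 and 336 CPM on chow, below the HFS libraries given above (log2 fold change 0.61, standard error 0.23, adjusted p = 0.32). *Ppara* had 193 and 195 CPM on chow (log2 fold change 0.43, 0.03 to 0.83, adjusted p = 0.36). In chow-fed *Xbp1* fl/fl libraries these genes had 373, 486 and 563 CPM and 193, 255 and 227 CPM. The chow-fed *Xbp1* LKO group holds 2 libraries, and its replicate 2 had the lower value of the pair for 14 of the 17 members; the median over all members was 0.13 without replicate 2 and 0.32 without replicate 1.

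The paired thiolases had diet effects of opposite sign in *Xbp1* LKO hepatocytes, and neither passed the test. *Acaa1a* had 279 and 295 CPM on chow and 236, 254 and 247 CPM on the HFS diet, and *Acaa1b* had 724 and 498 CPM on chow and 991, 1133 and 744 CPM on the HFS diet. Their log2 fold changes were -0.22 (95% confidence interval -0.55 to 0.10) and 0.65 (0.01 to 1.28). In chow-fed *Xbp1* fl/fl libraries *Acaa1a* had 249.95, 219 and 199.6 CPM and *Acaa1b* 611, 749 and 754 CPM. When both were counted as 1 gene, the genotype effect on chow was -0.05, while it was 0.37 for *Acaa1a* and -0.21 for *Acaa1b*.

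**Figure D5:**
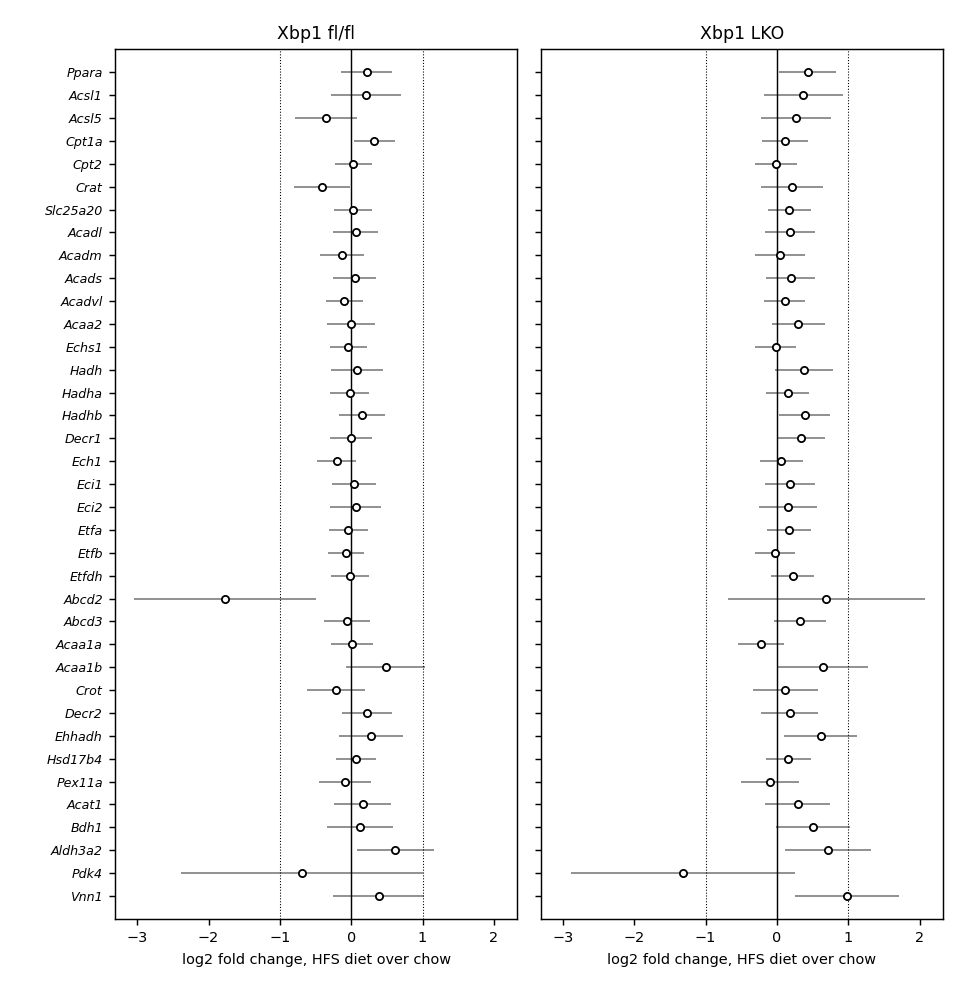
Log2 fold change of each member on the HFS diet over chow in *Xbp1* fl/fl (left) and *Xbp1* LKO (right) hepatocytes, with 95% confidence intervals; no point passed an adjusted p of 0.05, and dotted lines mark -1 and 1. In *Xbp1* LKO, 31 of 37 points lie above 0, against 20 in *Xbp1* fl/fl.

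The difference between the diet effects was tested directly as an interaction. No member passed edgeR, and neither did any of the 13303 genes (0%), of which 816 had an unadjusted p under 0.05; DESeq2 called no member and 0.227% of genes. The median interaction of the members was 0.17 on the log2 scale with 31 of 37 above 0, beside 0.01 over all genes, and was 0.09 without replicate 2 of the chow-fed *Xbp1* LKO group, 0.10 without replicate 2 of HFS-fed *Xbp1* fl/fl mice and up to 0.26 without another library. *Abcd2* (2.47, 95% confidence interval 0.58 to 4.36, adjusted p = 0.72) and *Crat*, the carnitine acetyltransferase (0.62, 0.03 to 1.21, adjusted p = 0.79), had an unadjusted p under 0.05. For 30 of 37 members the interval lay within -1 to 1. The genotype effect on the HFS diet, the diet effect in *Xbp1* LKO and the interaction share the HFS-fed *Xbp1* LKO libraries, so a direction that they share is not separate support for any of them.

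*Decr1*, which reduces dienoyl-CoA of unsaturated chains, had 247, 276 and 298 CPM in chow-fed *Xbp1* fl/fl, 277 and 232 CPM in chow-fed *Xbp1* LKO, 288, 234 and 295 CPM in HFS-fed *Xbp1* fl/fl and 297, 321 and 349 CPM in HFS-fed *Xbp1* LKO libraries. The HFS-fed *Xbp1* LKO libraries were above all HFS-fed *Xbp1* fl/fl libraries and overlapped with the chow-fed *Xbp1* fl/fl group. *Etfdh*, which passes electrons from the flavoprotein to ubiquinone, had 395, 425 and 489.5 CPM, 429.8 and 373 CPM, 439, 401 and 451 CPM, and 447, 467 and 488 CPM in the same order. *Etfdh* kept within 1.31 times from its lowest to its highest library, and its genotype effects were -0.12 on chow and 0.12 on the HFS diet. *Cpt2*, which releases acyl-CoA inside mitochondria, had the smallest ratio of highest to lowest library, 1.23, and spanned 206 to 253 CPM; by the SD of log2 CPM within groups *Hadha* was lowest with 0.11, and *Cpt2* had 0.12.

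PPAR-alpha binds a DR1 element, a repeat of the site AGGTCA spaced by 1 base, and the RefSeq promoters (GRCm38.p6, 250 bases before to 50 after the start) of the members were searched for it on both strands with at most 2 mismatches. Of 30 members with a promoter in the table, 3 held such a match (10%), as did 1190 of 27025 genes (4.4%). The matches are printed with flanking bases, in the direction of the gene and with the element in capitals. In *Etfa* the element lies on the opposite strand.
Echs1, chr7:140116468-140116528, minus strand: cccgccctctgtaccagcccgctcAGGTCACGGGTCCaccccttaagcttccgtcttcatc
Etfa, chr9:55512284-55512344, minus strand: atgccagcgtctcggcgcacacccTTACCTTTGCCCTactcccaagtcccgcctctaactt
Slc25a20, chr9:108662118-108662178, plus strand: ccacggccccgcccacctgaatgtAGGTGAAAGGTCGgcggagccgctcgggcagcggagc
A match is a description of letters only, and binding of PPAR-alpha was not tested. *Slc25a20*, the carnitine-acylcarnitine translocase, was among the 14 members apart and higher on the HFS diet, and *Echs1* and *Etfa*, a hydratase and an electron transfer subunit, were not. The promoter of *Acsl5* held no match at this setting.

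Of 73 other genes of fatty acid handling, 71 were tested. On chow, 1 was higher and 3 lower in *Xbp1* LKO hepatocytes by edgeR's adjusted p, where 1.73% and 3.02% of all genes were, so that these counts are close to the background. The median log2 fold change was -0.05, with 31 of 71 above 0. *Acot2*, a mitochondrial acyl-CoA thioesterase, had 3.20, 4.39 and 4.33 CPM in *Xbp1* fl/fl and 7.98 and 26.1 CPM in *Xbp1* LKO libraries (log2 fold change 2.10, adjusted p = 0.011). *Bdh2*, a cytosolic hydroxybutyrate dehydrogenase, had 12.2, 17.2 and 20.4 CPM against 4.22 and 0.918 CPM (-2.69, 0.014). *Slc27a5*, a fatty acid transport protein of the liver that also activates bile acids, had 1313, 1708 and 1262 CPM against 865 and 548 CPM (-1.01, 0.023), and *Hacl1*, a lyase of peroxisomal alpha oxidation, fell by 0.65 on the log2 scale (adjusted p = 0.044). On the HFS diet, 3 were higher and 1 lower, where 1.92% and 2.16% of all genes were. The median log2 fold change was 0.00091, with 36 of 71 above 0, beside 0.19 and 29 of 37 for the members. *Slc27a5* was lower again, with 1279.6, 1317 and 1455 CPM in *Xbp1* fl/fl and 756, 625 and 614 CPM in *Xbp1* LKO libraries (log2 fold change -1.02, adjusted p = 0.013). *Acot2* (1.41, 0.046), the fatty acid omega-hydroxylase gene *Cyp4a31* (1.68, 0.014) and *Pparg*, a receptor related to PPAR-alpha (1.35, 0.014), were higher. *Hacl1* fell by 0.77 with HFS feeding in *Xbp1* fl/fl hepatocytes (adjusted p = 0.049), and none of the 71 passed for the diet in *Xbp1* LKO or for the interaction. *Acot2* and *Cyp4a31* belong to families of similar genes, and reads shared with their relatives were not examined.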

How the data were processed

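Single-end reads of 50 bp were made from RNA of isolated hepatocytes, for which the authors deposited whole-number counts per Ensembl gene, without normalization. The sources differ on how they were made: the paper's methods name kallisto and tximport, and the submitters' processing notes list cutadapt 1.13, STAR, HTSeq 0.6.1p1 and DESeq2 on mm10. GENCODE M21 (GRCm38) matched 54165 of 54232 identifiers. All 37 mitochondrially encoded genes are listed at 0.

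With edgeR 4.0.16 (R 4.3.3), low genes were removed (filterByExpr, minimum count 10), TMM factors computed, and quasi-likelihood models fitted with 1 factor of 4 groups over the 11 libraries, with Benjamini-Hochberg adjustment over 13303 genes and a threshold of 0.05. Log2 CPM used a prior count of 2. Alternatives were DESeq2 1.42.0, other scalings and filters, replicate blocks and each library left out in turn. Simulated counts were examined for the genotype effect on chow only. There edgeR recovered 67 of 100 genes changed by 1 on the log2 scale and 91 of 100 changed by 2, with 5 false calls. The simulated libraries did not carry the albumin shift between the genotypes, so the dependence on scaling was not tested by them. Chi-square values between replicates of 1 group were 27.9 to 101.6 per degree of freedom, so the spread between libraries, not counting error, limits precision. The sample titles only number the libraries, and the animal numbers stand in the file labels. The paper gives its HFS-fed samples as pools of 2 animals. Read this way the libraries are separate mice or pools, and p-values measure the spread between them, technical spread included. Values in every library were given for members past the threshold and for leads of each role; *Aldh3a2*, *Crot*, *Abcd2*, *Acaa1a* and *Acaa1b* were added after their values were seen. The members and lists were chosen with earlier results of these data known.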

Additional observations from a re-analysis of the deposited data

How the results depend on the processing

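Leaving out each library in turn gave 0 to 3 members called for the genotype effect on chow, 0 to 1 on the HFS diet, and 0 for both diet effects and the interaction. The median log2 fold change of the members was then -0.04 to 0.09 and 0.12 to 0.27 for the genotype effects on chow and HFS diet, -0.07 to 0.10 and 0.13 to 0.32 for the diet effects in *Xbp1* fl/fl and *Xbp1* LKO, and 0.09 to 0.26 for the interaction. All genes called numbered 69 to 762, 184 to 662, 6 to 59, 0 to 36 and 0 in the same order, beside 632, 543, 57, 8 and 0 with every library. *Acsl5* on chow lost its call without replicate 3 of the chow-fed *Xbp1* fl/fl group (-0.94, adjusted p = 0.055), without replicate 2 of the chow-fed *Xbp1* LKO group (-0.75, 0.24) and in a fit of the chow libraries alone (-1.06, 0.11), and kept it under the other settings, at -1.46 to -1.03, or at -0.75 with library totals (0.030).

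DESeq2 called 1115, 987, 175, 210 and 31 genes in the order of the 5 comparisons, and 2, 2, 0, 0 and 0 members. Library totals gave 3000 and 1483 genes and 8 and 13 members for the genotype effects, with member medians of 0.32 and 0.45. With no filter on low counts, 1507, 1438, 499, 722 and 269 genes and 4, 5, 2, 3 and 1 members were called; the cause was not tested. Fits of only the groups compared gave 233 genes and 0 members on chow, 3 members (*Pdk4*, *Vnn1* and *Abcd2*) on the HFS diet and 0 genes for the diet in *Xbp1* LKO. *Acaa1a* on chow turned from 0.37 to -0.047 when counted with *Acaa1b* as 1 gene, which that sum brings about because *Acaa1b* has more counts.

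Replicate numbers were shared between groups, but same-numbered libraries are different mice, and their deviations from group means had a mean correlation of -0.01 (-0.20 to 0.23). With the replicate block, 19 genes were called for the diet in *Xbp1* LKO, and 53 with the second chow-fed *Xbp1* LKO library under its other number; *Acsl5* on chow had adjusted p-values of 0.021 and 0.022, and no call of a member changed. The chow-fed *Xbp1* LKO group holds 2 libraries, and for 4 to 7 members per comparison the 95% confidence interval reached beyond a log2 fold change of -1 or 1. *Pdk4* and *Abcd2*, with as few as 18 and 55 counts in a library, were among these in every comparison.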
